A study of Mus musculus with 2 samples.

Results

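The IL-1 family and inflammasome genes described here are 10 genes that were chosen by symbol: the ligands Il1a, Il1b and Il18, the receptor antagonist Il1rn, the receptor chains Il1rap and Il1r2, the sensor Nlrp3, the caspases Casp1 and Casp4, and the pore-forming protein Gsdmd. All 10 were found among the 34745 genes of the table, and 9 of them were among the 8658 genes whose FPKM averaged 1 or more (called measured genes below). They were picked with their values in view, so the comparison of these genes is a description and not a test. FPKM is the count of a gene divided by the length of the gene and by the library total, on a fixed scale.

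The cells were primary macrophages cultured from the bone marrow of C57BL/6 mice. One library came from macrophages transfected with AclyE14-ASO, an antisense oligonucleotide named for Acly, and 1 library from macrophages transfected with Control-ASO. Both cultures also received LPS, the bacterial cell wall lipid that activates macrophages through TLR4, so neither library shows unstimulated cells. The dose and duration of LPS, the number of mice and whether marrow was pooled are unknown from the labels.

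IL-1 alpha and IL-1 beta are inflammatory cytokines that signal through the same receptor, a pair made of IL1R1 and the accessory chain IL1RAP. Macrophages make the precursors after stimulation of TLR4, and IL-1 beta and IL-18 are then cut by caspase-1 inside an inflammasome, a complex built on a sensor such as NLRP3. Caspase-1, or mouse caspase-11 (the product of Casp4) after contact with LPS in the cytosol, also cuts gasdermin D, whose pores release the mature cytokines. Cutting, release and signalling are protein events that RNA levels do not measure.

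The AclyE14-ASO library held 12751076 counts over 14653 genes and the Control-ASO library 14215397 counts over 14445 genes. Acly, the gene in the name of the oligonucleotide, was at 7.35 FPKM in the AclyE14-ASO library and 13.3 FPKM in the Control-ASO library. It was lower by at least 1.5-fold, as were 8.48% of all measured genes. Macrophage markers were abundant in both libraries, with 11 of 12 averaging 1 FPKM or more and Lyz2 the highest. Of these 11, 4 were at least 1.5-fold higher with AclyE14-ASO (Itgam, Cd14, Fcgr1 and Msr1) and 2 lower (Cd68 and Aif1), all named after their values were seen. Over all measured genes 7.03% were higher by that size and 8.48% lower. Markers of fibroblasts, stroma and endothelium summed to 224 FPKM over 14 genes in the AclyE14-ASO library and 61.5 FPKM in the Control-ASO library, and Tagln was the most abundant. Of the 10 that averaged 1 FPKM or more, 8 fibroblast and stromal genes were higher by at least 1.5-fold, where 7.03% of all genes averaging 1 FPKM or more were, and Pdgfra and Thy1 among them reached that average through the AclyE14-ASO library alone. Among the endothelial genes, Kdr was lower, at 5.49 FPKM in the AclyE14-ASO library and 11.1 FPKM in the Control-ASO library, Cdh5 lay within 1.5-fold and Pecam1 had 2 counts in the AclyE14-ASO library and 4 in the Control-ASO library. Those 5 single genes were picked with their values in view, and none of the 14 was at 0 in both libraries. Among neutrophil markers, S100a9, Ly6g, Elane, Camp and Retnlg were listed at 0 in both libraries, and 9 of the 12 averaged under 1 FPKM. The list summed to 50.6 FPKM in the AclyE14-ASO library and 26.2 FPKM in the Control-ASO library, most of it S100a8, at 41.4 FPKM in the AclyE14-ASO library and 19.7 FPKM in the Control-ASO library. The T cell genes Cd3e and Cd3d and the mast cell genes Cpa3 and Mcpt4 were at 0. The part of these other cell types in the differences below was not tested, and in bulk RNA fewer cells of a type cannot be told apart from less RNA per cell.

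With 1 library in each group there is no replicate, so the differences below lie between these libraries and carry no p-value. Genes were called higher or lower when FPKM + 1 differed by at least 1.5-fold, a rule of size. By that rule 4 of the 9 measured members were higher with AclyE14-ASO than with Control-ASO and 0 were lower, where 7.03% of all measured genes were higher and 8.48% lower. The 4 were Il1a, Il1b, Il1rn and Il18, the genes for the ligands and the antagonist. The other 5, Il1rap, Nlrp3, Casp1, Casp4 and Gsdmd, lay within 1.5-fold, and Il1r2 was under 1 FPKM. The median log2 ratio of the 9 was 0.41, beside -0.13 over all measured genes. Ratios of counts are given below per library total with exact 95% binomial intervals, which cover counting error only.

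**Figure D1:**
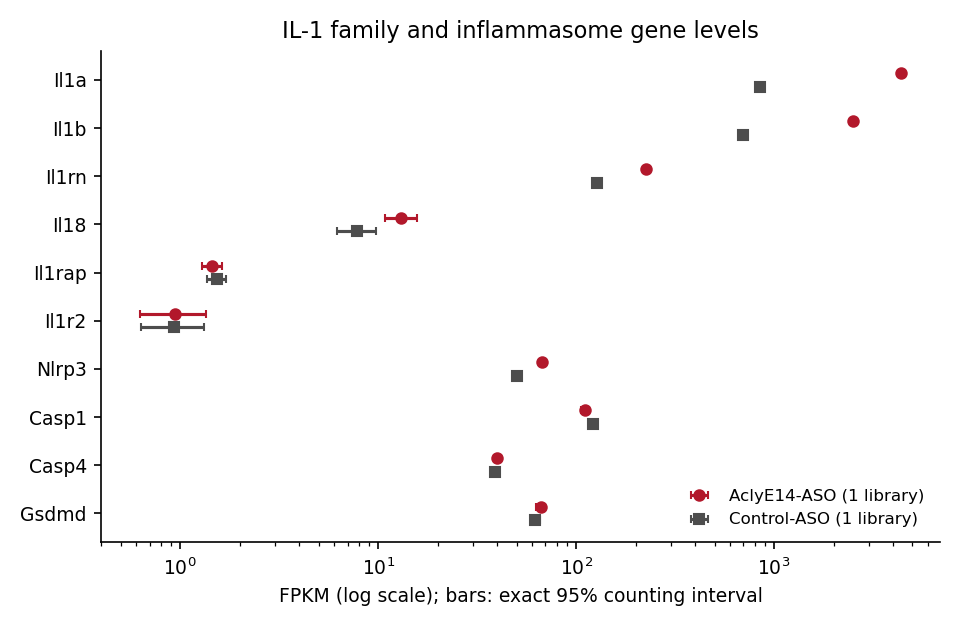
Level of each gene in FPKM (log axis) in the AclyE14-ASO library (red circles) and the Control-ASO library (grey squares), 1 library each; bars are exact 95% counting intervals. Il1a and Il1b stand apart at the top, and the 2 points of Il1rap, Il1r2, Casp4 and Gsdmd lie close together.

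Il1a, which encodes IL-1 alpha, had the largest ratio of the group. It was at 4383 FPKM (110324 counts) in the AclyE14-ASO library and 846 FPKM (23745 counts) in the Control-ASO library, a count ratio of 5.18 (5.11 to 5.25). Only 11 of the 8658 measured genes had a higher log2 ratio than its 2.37, and among the 458 genes averaging 100 FPKM or more its ratio was the highest. By FPKM it was the 10th most abundant gene of the AclyE14-ASO library and the 50th of the Control-ASO library. It passed 4-fold, as did 0.323% of measured genes in the upward direction. Of the 4 members at this abundance, Il1a, Il1b and Il1rn were higher by 1.5-fold and Casp1 was not, where 9.39% of the 458 genes were higher and 7.21% lower.

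Il1b, which encodes IL-1 beta, was at 2495 FPKM (74823 counts) in the AclyE14-ASO library and 696 FPKM (23267 counts) in the Control-ASO library. The count ratio was 3.59 (3.53 to 3.64) and the log2 ratio 1.84, with 42 measured genes above it and rank 4 among the 458 abundant genes, and by FPKM it ranked 17 in the AclyE14-ASO library and 62 in the Control-ASO library. Il1a and Il1b were the members past 2-fold, a size that 3.18% of measured genes reached upward. Together they held 1.45% of all gene counts in the AclyE14-ASO library (1.45% to 1.46%) and 0.331% in the Control-ASO library (0.328% to 0.334%).

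Il1a and Il1b are neighbours on the minus strand of chromosome 2 (GRCm38), with Il1a at 129299610 to 129309972, Il1b at 129364570 to 129371139 and 54.6 kb between them. The genes around the pair were scarce. Ckap2l, a mitotic spindle gene next to Il1a, had 28 counts in the AclyE14-ASO library and 7 in the Control-ASO library, and F830045P16Rik, on the side of Il1b, had 0 in both. Each cytokine gene has an opposite-strand partner. Gm14023 over Il1a had 5 counts in the AclyE14-ASO library and 2 in the Control-ASO library, and Il1bos over Il1b had 36 counts in the AclyE14-ASO library and 5 in the Control-ASO library. These partners were far below the counts of the cytokine genes. The labels do not say whether counting used the strand, and the partner counts do not show how reads over shared bases were assigned. No member overlaps a same-strand gene with a count.

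The promoters of Il1a, Il1b and Il1rn are shown because these are the abundant members that were higher. Each is the 250 bases before an annotated start, from RefSeq (GRCm38.p6), 5′ to 3′ on the gene's strand. Promoters were listed for 9 of the 10 genes, all but Gsdmd, with 13 start sites in all. Capitals mark matches on either strand to a TATA box (TATAAA), the NF-kB consensus motif, an AP-1 motif (TGANTCA), a CRE (TGACGTCA), a C/EBP type motif (TTNNGNAA), an interferon response type motif (GAAANNGAA) or a PU.1 type motif (GAGGAA). Matches can overlap, as the C/EBP and PU.1 type matches of Il1a do.
Il1a, chr2:129309973-129310222, minus strand: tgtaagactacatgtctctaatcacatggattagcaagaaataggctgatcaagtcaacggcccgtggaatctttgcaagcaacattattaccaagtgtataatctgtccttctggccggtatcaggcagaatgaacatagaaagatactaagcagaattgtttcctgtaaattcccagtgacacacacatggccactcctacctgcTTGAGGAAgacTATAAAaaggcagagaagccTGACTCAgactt
Il1b, chr2:129371140-129371389, minus strand: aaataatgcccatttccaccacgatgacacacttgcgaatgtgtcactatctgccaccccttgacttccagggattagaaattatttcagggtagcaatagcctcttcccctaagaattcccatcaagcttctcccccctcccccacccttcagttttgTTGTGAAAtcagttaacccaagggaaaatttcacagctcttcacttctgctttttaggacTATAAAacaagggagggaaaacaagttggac
Il1rn, upstream start, chr2:24336610-24336859, plus strand: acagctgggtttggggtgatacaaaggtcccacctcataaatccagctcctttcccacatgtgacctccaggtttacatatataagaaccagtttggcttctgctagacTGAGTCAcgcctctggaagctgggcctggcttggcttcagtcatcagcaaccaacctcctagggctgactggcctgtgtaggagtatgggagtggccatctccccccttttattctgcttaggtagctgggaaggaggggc
Il1rn, farthest downstream start, chr2:24345121-24345370, plus strand: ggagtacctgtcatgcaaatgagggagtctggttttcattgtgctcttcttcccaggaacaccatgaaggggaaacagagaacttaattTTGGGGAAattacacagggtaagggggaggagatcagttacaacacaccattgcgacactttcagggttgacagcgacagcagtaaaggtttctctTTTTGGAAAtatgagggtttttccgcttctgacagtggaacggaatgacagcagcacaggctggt

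Il1a and Il1b both carried TATAAA close to the start, at 32 to 27 bases before it in Il1a and 31 to 26 bases in Il1b. The letters occur in 12.4% of the 32851 listed promoters, at any position of the window and on either strand. The share with them at this distance from the start was not counted. Among the members Il18 also held them, on the opposite strand and farther from its start, at 175 to 170 bases. An AP-1 match lay 12 to 6 bases before the start of Il1a and 141 to 135 bases before the upstream start of Il1rn, and 6.75% of promoters hold one. C/EBP type matches were found in Il1a, Il1b and Il1rn, and also in Nlrp3 and Casp4, which lay within 1.5-fold, and occur in 36.8% of promoters. The NF-kB motif (3.90% of promoters) was found in Nlrp3 and Casp4 and the PU.1 type motif (23.3%) in Il1a, Nlrp3 and Casp1. The CRE and the interferon response type motif, in 1.55% and 7.13% of promoters, were in none of the 13 member promoters. A match describes letters in this window and shows no binding.

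Il18 encodes IL-18, whose precursor, unlike that of IL-1 beta, many resting cells already hold. It was at 13.1 FPKM (119 counts) in the AclyE14-ASO library and 7.78 FPKM (79 counts) in the Control-ASO library. Its count ratio of 1.68 had an interval of 1.25 to 2.26 that spans the 1.5-fold limit, and its log2 ratio of 0.68 was 0.50, under that limit, with a pseudocount of 5 FPKM. The level of Il18 was far below that of Il1b in both libraries, at 0.00524 of the Il1b FPKM in the AclyE14-ASO library and 0.0112 in the Control-ASO library. With the length of the longest coding transcript, described further on, these were 0.00251 in the AclyE14-ASO library and 0.00535 in the Control-ASO library. Bco2, which overlaps the first part of Il18 on the other strand, had 19 counts in the AclyE14-ASO library and 0 in the Control-ASO library.

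Il1rn encodes the IL-1 receptor antagonist, which occupies the receptor without starting a signal. It was at 225 FPKM (23232 counts) in the AclyE14-ASO library and 127 FPKM (14639 counts) in the Control-ASO library. The count ratio was 1.77 (1.73 to 1.81) and the log2 ratio 0.82, with 376 measured genes above it. The antagonist was thus higher, but by less than both agonists. The intervals of the 3 count ratios do not overlap, but they cover counting error only and not the spread between cultures. Of the counts of Il1rn, Il1a and Il1b together, Il1rn held 11.1% in the AclyE14-ASO library (11.0% to 11.3%) and 23.7% in the Control-ASO library (23.4% to 24.1%). In FPKM the antagonist was 0.0327 of the summed agonists in the AclyE14-ASO library and 0.0824 in the Control-ASO library, 2.52 times as much in the Control-ASO library. Because 2 genes are summed, both the level of this ratio and its fold between the libraries depend on the gene length used. With the longest coding transcript, described further on, the ratio was 0.0845 in the AclyE14-ASO library and 0.203 in the Control-ASO library. This comparison within each library does not depend on the scaling between them.

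Il1a was also higher relative to Il1b. Il1a made up 59.6% of the counts of the pair in the AclyE14-ASO library (59.4% to 59.8%) and 50.5% in the Control-ASO library (50.1% to 51.0%). The ratio of Il1a to Il1b in FPKM was 1.76 in the AclyE14-ASO library and 1.22 in the Control-ASO library, a 1.44-fold difference. With the length of the longest CCDS (consensus coding) transcript in place of the deposited one, the ratio was 1.013 in the AclyE14-ASO library and 0.701 in the Control-ASO library, so the order of the pair in the Control-ASO library turned, while the 1.44-fold difference between the libraries does not depend on the length.

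**Figure D2:**
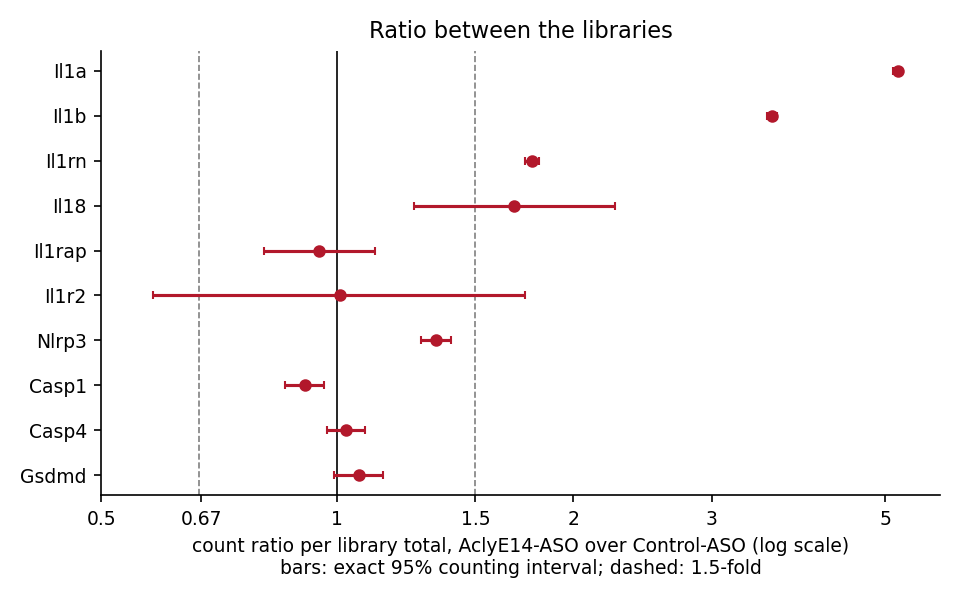
Ratio of counts per library total, AclyE14-ASO over Control-ASO (log axis), for each gene, with exact 95% counting intervals; the solid line is a ratio of 1 and the dashed lines 1.5-fold either way. Il1a, Il1b and Il1rn lie above 1.5 with their intervals, the interval of Il18 crosses 1.5, and Nlrp3, Casp1, Casp4 and Gsdmd lie between the dashed lines.

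The receptor chains were low and close to equal between the libraries. Il1rap, the accessory chain that IL-1 and IL-33 receptors need for signalling, was at 1.45 FPKM (279 counts) in the AclyE14-ASO library and 1.53 FPKM (328 counts) in the Control-ASO library, a ratio of 0.948 (0.805 to 1.12). Il1r2, a decoy receptor that binds IL-1 without signalling, was at 0.937 FPKM (28 counts) in the AclyE14-ASO library and 0.930 FPKM (31 counts) in the Control-ASO library. Its ratio of 1.01 had an interval of 0.582 to 1.74, which does not exclude a 1.5-fold difference either way. The FPKM ratio of Il1r2 to Il1rap was 0.645 in the AclyE14-ASO library (0.421 to 0.953) and 0.608 in the Control-ASO library (0.406 to 0.879), and with the longest coding transcript it was 0.320 in the AclyE14-ASO library and 0.301 in the Control-ASO library.

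Nlrp3, the sensor that starts one kind of inflammasome, was at 67.4 FPKM (4423 counts) in the AclyE14-ASO library and 50.4 FPKM (3689 counts) in the Control-ASO library. The ratio was 1.34 (1.28 to 1.40), below the 1.5-fold rule, and 11.2% of measured genes had a higher log2 ratio than its 0.41. Nlrp3 was the highest of the inflammasome members by this measure.

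The caspases and gasdermin D differed little. Casp1 was at 111 FPKM (2112 counts) in the AclyE14-ASO library and 122 FPKM (2593 counts) in the Control-ASO library, a ratio of 0.908 (0.857 to 0.962), and its log2 ratio of -0.14 was next to the median gene. Casp4, which lies 1.56 kb from Casp1 on chromosome 9, was at 40.1 FPKM (2475 counts) in the AclyE14-ASO library and 39.0 FPKM (2690 counts) in the Control-ASO library, a ratio of 1.03 (0.971 to 1.08). Gsdmd was at 66.3 FPKM (1502 counts) in the AclyE14-ASO library and 62.3 FPKM (1573 counts) in the Control-ASO library, a ratio of 1.06 (0.991 to 1.14). The intervals of Casp4 and Gsdmd include a ratio of 1, and those of all 3 exclude 1.5-fold either way. The 4 inflammasome members together held 0.0824% of counts in the AclyE14-ASO library and 0.0742% in the Control-ASO library.

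**Figure D3:**
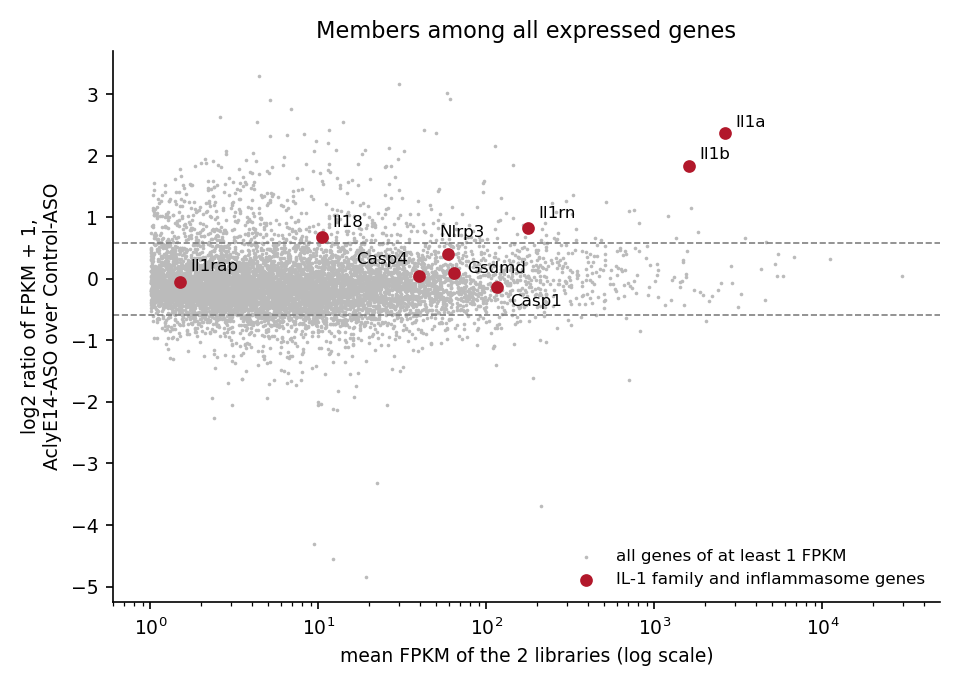
Mean FPKM of the 2 libraries (log axis) against the ratio of FPKM + 1 between AclyE14-ASO and Control-ASO on a log2 scale, for the 8658 measured genes (grey) and the 9 measured members (red, named); dashed lines mark 1.5-fold. Il1a has the highest ratio of all genes of 100 FPKM or more, Il1rn and Il18 lie just above the upper line, and the other 5 members between the lines.

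The order of levels among the members depends on the gene length used. For 8 of the 10 genes the length behind the deposited FPKM, recovered from count and FPKM, was within 1% of the sum of all distinct annotated exons, with overlapping exons of different transcripts each counted. That makes genes with many transcript forms look lower. The exceptions were Il18, at 714 bases against 1608 for the summed exons, and Gsdmd, at 1776 against 4222. For Il1b the length was 2352 bases, while its longest consensus coding (CCDS) transcript in GENCODE M21 has 1356, for Il1rn 8102 against 2474, and for Casp4 4846 against 1435. Il1a and Casp1 have 1 annotated transcript and the same length both ways. Counts per kilobase of the longest CCDS transcript, scaled to the library total as FPKM is, put Il1a at 4383 and Il1b at 4327 in the AclyE14-ASO library, and Il1a at 846 and Il1b at 1207 in the Control-ASO library. On that scale Il1b was above Il1a in the Control-ASO library, with Il1a at 0.701 of Il1b (0.688 to 0.714), and the pair was nearly level in the AclyE14-ASO library, with a ratio of 1.013 (1.003 to 1.022). Casp4 was then at 135 in the AclyE14-ASO library and 132 in the Control-ASO library, above Casp1 at 111 in the AclyE14-ASO library and 122 in the Control-ASO library, the reverse of their order in FPKM. Il1rn was at 736 in the AclyE14-ASO library and 416 in the Control-ASO library, which was 0.0845 of the summed agonists in the AclyE14-ASO library and 0.203 in the Control-ASO library. Il18, whose transcript of 860 bases is longer than the deposited length, moved down to 10.9 in the AclyE14-ASO library and 6.46 in the Control-ASO library. Il1r2 was at 1.55 in the AclyE14-ASO library and 1.54 in the Control-ASO library, and so above 1 on that scale. Count ratios between the libraries are the same with either length.

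**Figure D4:**
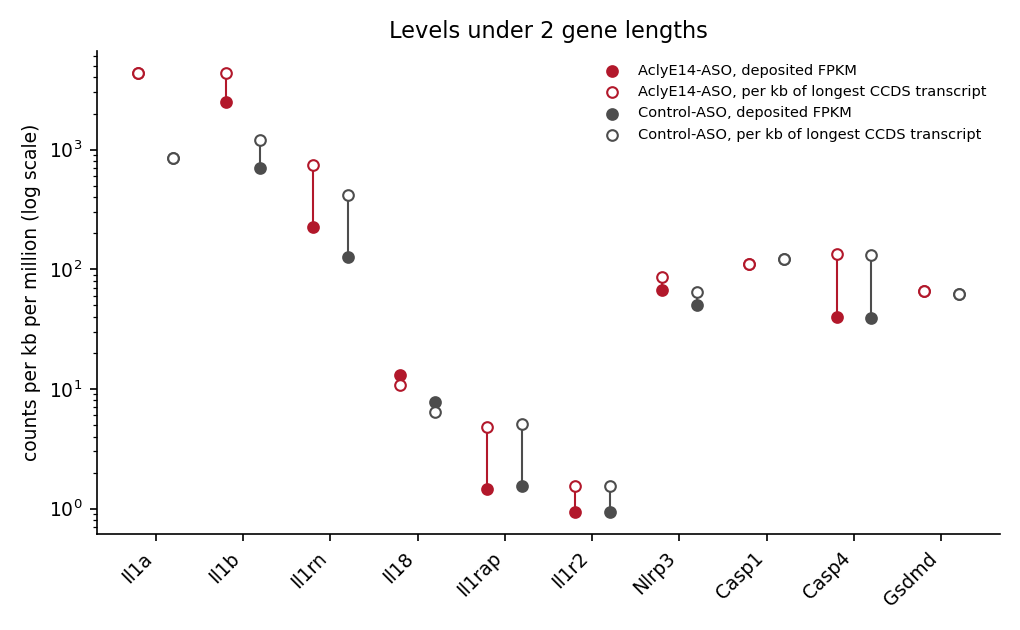
Counts per kilobase, scaled to the library total (log axis), for each gene with the length behind the deposited FPKM (filled) and with the longest CCDS transcript (open), AclyE14-ASO library in red left of the Control-ASO library in grey. Il1b, Il1rn, Il1rap, Il1r2, Nlrp3 and Casp4 move up with the transcript length and Il18 moves down, and the step is the same in both libraries.

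The rest of the pathway was described by lists. Over 8 lists of related genes, 96 of 97 genes were in the table and 65 were measured. Of these, 53 (81.5%) lay within 1.5-fold, 3 (4.62%) were higher and 9 (13.8%) lower, with a median log2 ratio of -0.07. Over all measured genes 84.5% lay within, 7.03% were higher and 8.48% were lower, and the median was -0.13. After centring on the median gene, 7 of the 65 were higher and 7 lower, and the centred shares of all measured genes are not given here. The uncentred counts of single lists below are to be read against the uncentred shares. Among 6 other IL-1 family ligands 1 was measured. Il1f9, the gene for IL-36 gamma, was at 1.48 FPKM (31 counts) in the AclyE14-ASO library and 5.98 FPKM (140 counts) in the Control-ASO library, a log2 ratio of -1.49 against the direction of Il1a and Il1b. Il33, named after its values were seen, had 23 counts in the AclyE14-ASO library and 17 in the Control-ASO library.

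Of 9 other receptors and binding proteins 3 were measured. Il18bp, a secreted protein that binds and blocks IL-18, was at 40.8 FPKM in the AclyE14-ASO library and 67.5 FPKM in the Control-ASO library, a count ratio of 0.605 (0.552 to 0.662), while the ratio of Il18 was above 1. Il1r1, the signalling receptor of IL-1, was at 1.65 FPKM (207 counts) in the AclyE14-ASO library and 0.624 FPKM (87 counts) in the Control-ASO library, and passed 1 FPKM through the AclyE14-ASO library alone. The fibroblast, stromal and endothelial marker list summed to 224 FPKM in the AclyE14-ASO library and 61.5 FPKM in the Control-ASO library. In it, 8 of the 10 measured genes were at least 1.5-fold higher with AclyE14-ASO, where 7.03% of all measured genes were. Those 8 were fibroblast and stromal genes, and the endothelial gene Kdr was lower. The part of such cells in the level of Il1r1 was not tested. Il1rl2, the IL-36 receptor beside it on chromosome 1 (also named after its values were seen), had a log2 ratio of 0.51.

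All 11 genes of IL-1 receptor signalling were measured, and 2 were lower and 0 higher, with a median of -0.31 beside -0.13 over all measured genes. Tollip, an adaptor that dampens this pathway, was at 24.0 FPKM in the AclyE14-ASO library and 42.5 FPKM in the Control-ASO library, and Tab2, a subunit of the TAK1 kinase complex, at 13.5 FPKM in the AclyE14-ASO library and 22.4 FPKM in the Control-ASO library. After centring on the median gene, or with a pseudocount of 5 FPKM, 1 of the 11 was lower and Tab2 lay within 1.5-fold. Myd88, the adaptor shared with TLR4 and the most abundant of the list, was at 69.6 FPKM in the AclyE14-ASO library and 84.2 FPKM in the Control-ASO library.

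Of 16 other inflammasome sensors and adaptors 8 were measured, and 2 were lower and 0 higher, with a median of -0.16. Nek7, a kinase that NLRP3 needs to assemble, was at 1.35 FPKM (241 counts) in the AclyE14-ASO library and 5.03 FPKM (1004 counts) in the Control-ASO library, a ratio of 0.268 (0.232 to 0.308). Mefv, the gene for the sensor pyrin, was at 4.46 FPKM in the AclyE14-ASO library and 7.78 FPKM in the Control-ASO library. After centring on the median gene, or with a pseudocount of 5 FPKM, 1 of the 8 was lower and Mefv lay within 1.5-fold. Naip2, which detects bacterial secretion proteins and was the most abundant, was at 21.5 FPKM in the AclyE14-ASO library and 24.4 FPKM in the Control-ASO library. Pycard, the gene for the adaptor ASC, named after its values were seen, was at 5.65 FPKM in the AclyE14-ASO library and 6.38 FPKM in the Control-ASO library.

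Among other caspases, gasdermins and lytic death genes 9 of 15 were measured and all 9 lay within 1.5-fold, as did 84.5% of all measured genes. The most abundant was Ninj1, which ruptures the membrane of dying cells, at 70.8 FPKM in the AclyE14-ASO library and 61.7 FPKM in the Control-ASO library. Gsdma, Gsdma2, Gsdma3 and Gsdmc were at 0 in both. Of 12 measured inflammasome triggers and regulators 1 was higher and 2 lower. Lrrc8a, a volume-regulated anion channel subunit, was at 3.28 FPKM in the AclyE14-ASO library and 1.49 FPKM in the Control-ASO library. P2rx4, an ATP-gated channel, was at 16.3 FPKM in the AclyE14-ASO library and 40.2 FPKM in the Control-ASO library, while P2rx7, the channel best known for ATP-driven IL-1 release (named after its values were seen), was at 2.33 FPKM in the AclyE14-ASO library and 2.22 FPKM in the Control-ASO library. Serpinb9, a granzyme inhibitor, was at 5.20 FPKM in the AclyE14-ASO library and 9.25 FPKM in the Control-ASO library, and Gbp2, the most abundant, at 550 FPKM in the AclyE14-ASO library and 583 FPKM in the Control-ASO library.

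All 7 measured genes for IL-1 processing and release lay within 1.5-fold (84.5% of all measured genes did). The protease gene Ctsb was the most abundant, at 2432 FPKM in the AclyE14-ASO library and 2545 FPKM in the Control-ASO library. S100a13, named after its values were seen, had a count ratio of 1.48 (1.31 to 1.66), an interval that spans 1.5-fold. It passed 1.5-fold after centring on the median gene and under some other scalings. The neutrophil protease genes Elane, Prtn3 and Ctsg were at 0 in both. Of 14 genes of IL-1 transcription and mRNA decay 12 lay within 1.5-fold. Zfp36, whose product binds AU-rich cytokine mRNAs and speeds their decay, was at 178 FPKM in the AclyE14-ASO library and 84.7 FPKM in the Control-ASO library, so it was higher along with Il1a and Il1b. Zc3h12c, a relative of the mRNA-cutting Zc3h12a, was at 5.97 FPKM in the AclyE14-ASO library and 14.1 FPKM in the Control-ASO library. Atf3, the most abundant, was at 247 FPKM in the AclyE14-ASO library and 249 FPKM in the Control-ASO library.

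**Figure D5:**
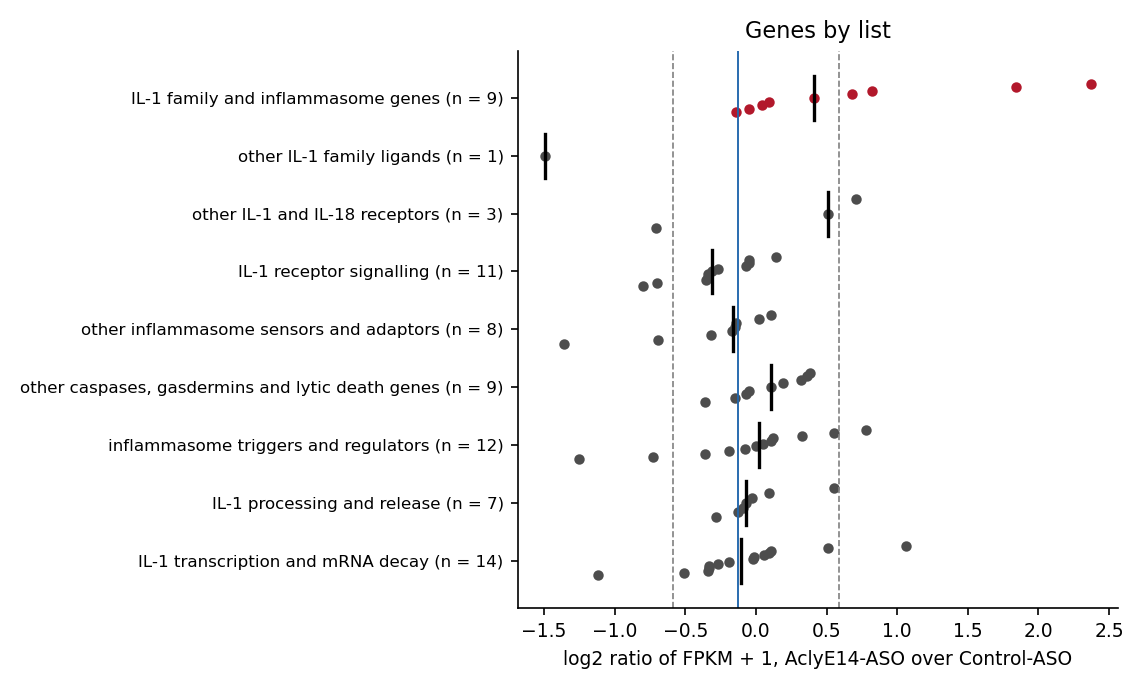
Each measured gene by list, placed at its ratio of FPKM + 1 between AclyE14-ASO and Control-ASO on a log2 scale. The 9 measured members are at the top in red. Black bars are list medians, dashed lines mark 1.5-fold and the blue line is the median of all measured genes (-0.13). The chosen genes reach to 2.37, and most genes of the other lists lie between the dashed lines.

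Among named genes averaging 100 FPKM or more, the closest log2 ratios to that of Il1a over the 2 libraries were those of Gpx1, a glutathione peroxidase (2.15), Lipa, the lysosomal acid lipase (1.84), and Il1b itself. The closest to Il1b were Lipa, Gpx1 and Wfdc17 (1.36), a secreted macrophage protein. Lipa was at 224 FPKM in the AclyE14-ASO library and 61.8 FPKM in the Control-ASO library, close to Il1rn in the AclyE14-ASO library and below it in the Control-ASO library. Gpx1 was at 183 FPKM in the AclyE14-ASO library and 40.5 FPKM in the Control-ASO library. Gpx1 and Lipa thus reached the average of 100 FPKM through the AclyE14-ASO library alone, so this filter favours genes that were higher there. A likeness over 2 libraries rests on 1 difference.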

How the data were processed

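Gene counts and FPKM values in 1 table were deposited by the authors for 1 AclyE14-ASO and 1 Control-ASO library, as raw counts per Ensembl gene and as FPKM per the file headers. Per the submitters' processing notes, the tools were HISAT2, StringTie 1.3.0 and edgeR and the build was mm10, but what each tool did is not stated. Both a strand-specific kit and an mRNA capture kit appear in the labels' protocols. Where both counts of a measured gene exceeded 20, its FPKM per count was 1.11 times as high in AclyE14-ASO as in Control-ASO. That is the ratio of the count totals, so the deposited FPKM hold no further scaling.

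Gene identifiers were given symbols and GRCm38 (mm10) coordinates from GENCODE M21, which held 34267 of them. From the deposited values, log2 ratios of FPKM + 1 were computed, which understate the change of low genes, and ratios of counts per library total with exact 95% intervals (Clopper-Pearson). Such intervals cover counting error only, since no replicate library enters them. Reads that carry no molecular identifier may be copies of 1 molecule, which would make the intervals too narrow even for that error. The depth was 12751076 counts for AclyE14-ASO and 14215397 counts for Control-ASO. No test was possible with 1 library per group. The genes and lists were chosen with earlier results of these data known. Named genes were the 10 members, Acly, per list the most abundant gene and up to 2 called genes at each end, the 3 genes closest in log2 ratio to Il1a and to Il1b, the most abundant and the undetected markers, and the coding genes beside a member. Opposite-strand partners and the genes so marked in the text were named after their values were seen. Alternatives were other pseudocounts, centring, TMM (edgeR 4.0.16), median-of-ratios size factors, other thresholds and filters, and totals without the 11 genes among the 10 most abundant of either library. The CCDS transcript length was added after seeing the data. Computations used Python 3.11.15, SciPy 1.17.1 and pandas 2.3.3 and were tested on simulated counts.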

Additional observations from a re-analysis of the deposited data

How the results depend on the processing

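No paired analysis was possible because each group had 1 library, and for the same reason no replicate could be left out. Log2 ratios of the 10 members kept to 2.37 to 2.50 for Il1a, 1.83 to 1.97 for Il1b, 0.80 to 0.94 for Il1rn and 0.50 to 0.81 for Il18 over the pseudocounts, scalings and lengths tried, and those of Nlrp3 stayed between 0.39 and 0.54. Centring shifts every ratio by 0.13, and Il1rap (-0.08 to 0.08) changed sign with scaling. No same-strand overlapping gene had a count, so summing over such genes changes nothing. At 2-fold 2 members were higher and at 4-fold 1.

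Of the 65 genes of the other lists, 3 were higher and 9 lower, beside 7.03% and 8.48% of all measured genes. At 2-fold 3.18% of all measured genes were higher and at 4-fold 0.323%. For the other alternatives the shares of all measured genes are not given here, so those counts have no matching background. The higher ones numbered 5 with a pseudocount of 0.1 FPKM or with count ratios, 1 with a pseudocount of 5 FPKM, a mean of at least 5 FPKM or a 2-fold limit, 7 with centring, 6 with TMM or size factors and 0 at 4-fold. The lower ones numbered 10 with a pseudocount of 0.1 FPKM or with count ratios, 6 with a pseudocount of 5 FPKM, 7 with centring or a mean of at least 5 FPKM, 9 with TMM or size factors, and 4 at 2-fold and 0 at 4-fold, where the stricter limit itself removes them.

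Per length of the longest CCDS transcript, the AclyE14-ASO library had ratios of 1.01 for Il1a over Il1b, 0.0845 for Il1rn over Il1a + Il1b, 0.00251 for Il18 over Il1b, 0.320 for Il1r2 over Il1rap and 1.22 for Casp4 over Casp1. The Control-ASO library had 0.701 for Il1a over Il1b, 0.203 for Il1rn over Il1a + Il1b, 0.00535 for Il18 over Il1b, 0.301 for Il1r2 over Il1rap and 1.08 for Casp4 over Casp1. Without the most abundant genes in the totals, the AclyE14-ASO shares of counts were 1.72% for Il1a and Il1b, 2.03% for all 10 members and 0.0975% for Nlrp3, Casp1, Casp4 and Gsdmd, and the Control-ASO shares were 0.384%, 0.593% and 0.0861% for the same sets. Depth limits Il1r2 and Il18 most.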
